A study of Mus musculus with 3 samples.

Results

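The suprarenal aortas that formed a dissecting abdominal aortic aneurysm (AAA) under angiotensin II (AngII) were compared with the suprarenal aortas of saline-infused mice. The members described here were all 715 gene entries that the deposited table lists for AngII AAA vs. Saline, of 1238 entries in the 3 tables of the series. They were chosen by that table alone, and 6 of them cover several genes at once. The series holds 3 RNA-seq libraries, 1 per cohort, named AngII AAA, AngII No AAA, and Saline. All mice were male, apoE null, C57BL/6J, and 12 weeks old at pump surgery, so that hyperlipidemia from loss of apolipoprotein E was common to every cohort. AngII AAA tissue was taken within 24 hours of diagnosis, and tissue of the other cohorts on day 10 of AngII or saline infusion. The aneurysm, the AngII infusion, and the day of harvest therefore cannot be told apart in this comparison. Each library was made from total RNA of several animals, mixed in equal amounts within a cohort and depleted of ribosomal RNA, and the labels give 35000000 to 43000000 reads per library.

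In this model, AngII infused into hyperlipidemic mice tears the media of the suprarenal aorta, and blood enters the wall as an intramural thrombus. The normal media is made of contractile smooth muscle cells between elastic lamellae. Leukocytes that enter the injured wall carry proteases, oxidases, and receptors for cell debris, and clearance of extravasated red cells calls on the haem and iron genes.

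Values are FPKM, a level of fragments scaled for transcript length and for the number of mapped reads. With 1 library per cohort there was no replicate error, no test was made, and each difference is one between 2 pooled libraries. The depth of each library cannot be read from FPKM, so the precision of single values is unknown. Where a gene is given as a pair of levels, the first is Saline and the second AngII AAA. A fold or a log2 ratio is AngII AAA over Saline, with no pseudocount. An entry listed at 0 in a library has no fold. In bulk tissue, fewer cells of a type and less RNA per cell cannot be told apart. The knocked-out gene, Apoe, was not listed in the tables used here, so the genotype was not checked. The aortic label was checked with smooth muscle markers in the comparison of AngII AAA with AngII No AAA, which lists 9 of the 25. Acta2, the smooth muscle actin, was at 304 FPKM in AngII AAA and 926 FPKM in AngII No AAA there. The Saline library is not in that comparison, so its label was not checked in this way.

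Of the 715 entries, 605 (84.6%) were higher in AngII AAA and 110 (15.4%) were lower. Every gene list below is counted from a table with this imbalance, so a list whose few listed members are all higher is near that background. The lists were chosen with earlier results of these data known, so the share of each that is listed may partly reflect that choice. The 585 higher entries with a fold spanned log2 ratios of 1.55 to 6.997 with a median of 2.46, or 5.52-fold. The 92 lower entries with a fold spanned log2 ratios of -4.46 to -1.57 with a median of -2.06, or 4.16-fold lower. The tables kept only entries that passed the authors' unadjusted p-value threshold, so smaller differences are not seen, and a gene that is not listed is not shown to be unchanged. At the fixed size of 8-fold, 165 entries (23.1%) were higher and 4 (0.559%) were lower. Of all entries, 24.8% were in neither other table, the share against which such counts are given below. Of the higher entries, 334 were under 5 FPKM in Saline.

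**Figure D1:**
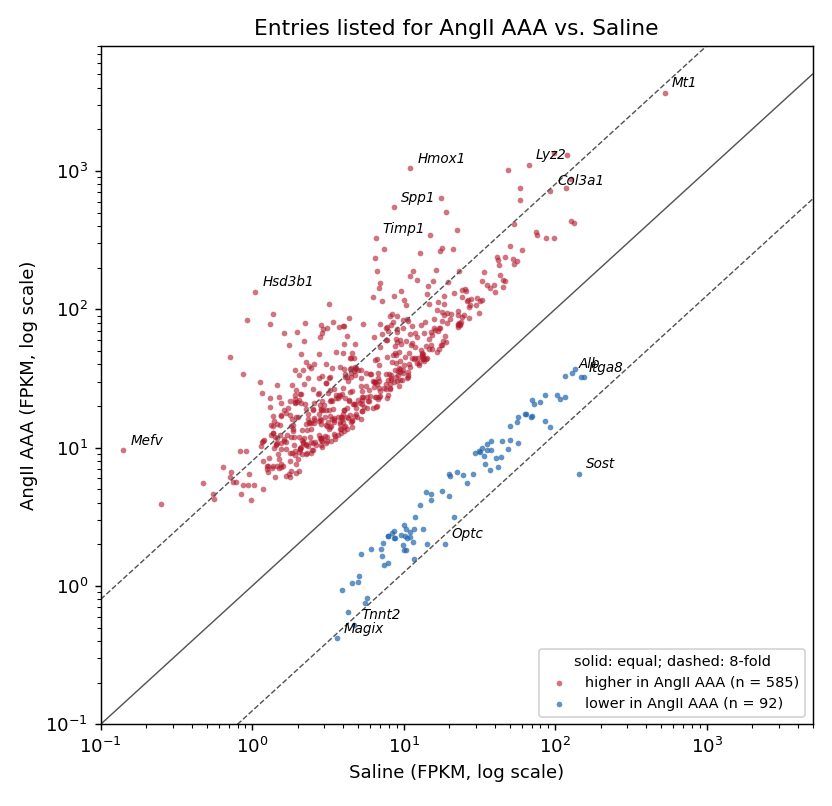
Level of each listed entry in Saline (x axis, FPKM, log scale) and in AngII AAA (y axis, FPKM, log scale), with 1 point per entry and dashed lines at 8-fold. The 585 higher entries lie above the line of equal levels, with Hsd3b1 farthest from it at a log2 ratio of 6.997, and the 92 lower entries lie below it, with Sost farthest at -4.46.

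The entries with the highest levels in AngII AAA included metal-binding, haem, and myeloid genes. Mt1, a metallothionein that binds zinc and copper, was at 529 FPKM in Saline and 3682 FPKM in AngII AAA, the highest level of all listed entries. Its neighbor Mt2 was at 98.2 and 1341 FPKM, a log2 ratio of 3.77. Hp, which encodes the hemoglobin scavenger haptoglobin, was at 119.5 and 1292 FPKM. Hmox1 (chromosome 8, mm9 77617516 to 77624492), the enzyme that breaks down haem, was at 11.1 and 1050.0 FPKM, 94.7-fold higher. Hmox1 was low in Saline and among the highest entries in AngII AAA, whereas Mt1, Hp, and Ftl1 were already over 100 FPKM in Saline. Ftl1, a ferritin light chain that stores iron, was at 127 and 877 FPKM. Slc40a1, the iron exporter ferroportin, was at 1.55 and 17.0 FPKM. Of 18 genes of iron and haem handling, 7 were listed, all higher, with a median log2 ratio of 3.45 against 2.46 for all higher entries. The metallothionein pair, the only family members listed, was grouped after its values were seen.

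Red cell and platelet genes were also higher. For 15 erythroid genes 6 entries were listed, all higher, with a median log2 ratio of 2.47, close to 2.46 for all higher entries. Of them 1 was at 8-fold or more higher, against 23.1% of all entries. Hbb-b2, a beta globin, was at 118 and 754 FPKM. Its level in AngII No AAA, also above Saline, is given below. Alas2, the first enzyme of haem synthesis in red cell precursors, was at 75.0 and 360.3 FPKM. The 2 alpha globin entries, each given for Hba-a1 and Hba-a2 together, were at 15.5 and 160.3 FPKM and at 7.76 and 60.0 FPKM. Globin genes have near-identical copies, and how reads were split among them is uncertain. Of 28 platelet and coagulation genes 11 were listed, all higher, with a median log2 ratio of 2.74 and 5 at 8-fold or more. Pf4, the platelet factor 4 chemokine, was at 49.0 and 1018 FPKM. Ppbp, the precursor of another platelet chemokine, was at 14.6 and 147 FPKM. Both platelet chemokine genes were over 10-fold higher. Thbs1, a matricellular protein of platelets and injured vessels, was at 12.7 and 256 FPKM. Plaur, the receptor that holds urokinase at the cell surface, was at 2.50 and 26.7 FPKM.

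Neutrophil markers and the adrenal genes described below had the largest medians of the gene lists, 4.63 and 4.59, and their order turned with a pseudocount of 1 FPKM, to 4.13 and 4.197. Of 30 markers 13 were listed, all higher, 1 of them listed at 0 in Saline and 11 of the other 12 at 8-fold or more. Mmp8, the neutrophil collagenase, was at 0.712 and 44.9 FPKM, a log2 ratio of 5.98. Clec4d, a lectin receptor of myeloid cells, was at 1.31 and 78.3 FPKM. Csf3r, the receptor for granulocyte colony-stimulating factor, was at 3.21 and 109 FPKM. Lcn2, which sequesters bacterial iron carriers, was at 6.66 and 187 FPKM. All 4 of these genes were under 7 FPKM in Saline. The alarmin gene S100a8, a member of the list that was named after its value was seen, was at 18.9 and 504 FPKM. Its partner S100a9, named in the same way, was at 22.5 and 377 FPKM. Of 10 mast cell markers 1 was listed, Hdc, the histidine decarboxylase that is also on the neutrophil list, at 2.55 and 15.1 FPKM.

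Macrophage markers were listed more completely than any other cell type list, with 24 of 30 listed, all higher, a median log2 ratio of 3.56, and 17 at 8-fold or more. Spp1 (chromosome 5, mm9 104864129 to 104870072), which encodes osteopontin, was at 8.57 and 548 FPKM, 63.9-fold higher. Arg1, the arginase of alternatively activated macrophages, was at 6.51 and 233 FPKM. Lyz2, the lysozyme of myeloid cells, was at 66.9 and 1109 FPKM. Lyz2 had the highest level of the list in both libraries. Ms4a6d was at 2.23 and 79.9 FPKM. Ms4a6c was at 2.85 and 76.7 FPKM. Ratios within the list varied widely. Cx3cr1, the fractalkine receptor, was near the low end, at 2.79 and 11.7 FPKM, a log2 ratio of 2.07. Srgn, the granule proteoglycan of blood cells, was among the 10 highest entries of AngII AAA, at 758 FPKM against 58.2 FPKM in Saline.

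Lymphocyte markers were sparse by comparison. None of 20 T and NK cell markers was listed, and 3 of 12 B and plasma cell markers were, all higher: Cd79b and Cd79a, the signaling chains of the B cell receptor, at log2 ratios of 2.74 and 2.54, and the inhibitory receptor Cd22 at 2.24. Of 16 antigen presentation genes, the chemokine receptor Ccr7, which guides dendritic cells to lymph nodes, was listed, at 1.59 and 7.41 FPKM. No marker of adipocytes (25 genes), nerve and Schwann cells (22 genes), or mesothelium (12 genes) was listed. Genes absent from the table have no values in it, so these counts say nothing of levels.

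Chemokine genes spanned a wide range. All 15 chemokine ligands listed were higher, with a median log2 ratio of 3.90 and 10 at 8-fold or more, and 1, the macrophage inflammatory protein gene Ccl4, was listed at 0 in Saline and 9.71 FPKM in AngII AAA. Cxcl2, a neutrophil attractant, was at 1.61 and 67.5 FPKM. Ccl6, a chemokine of myeloid cells, was at 17.6 and 632 FPKM. Ccl7, a monocyte attractant, was at 2.19 and 59.0 FPKM. Ccl8, another monocyte attractant, was at 3.42 and 80.9 FPKM. Of these 4 ligands only Ccl6 was over 10 FPKM in Saline. The 6 chemokine receptors listed were all higher. Ccr1, which binds several of the listed CC ligands, was at 0.926 and 83.7 FPKM, a log2 ratio of 6.499. Cxcr2, the neutrophil receptor for Cxcl2 and related ligands, was at 3.59 and 49.2 FPKM. Ccr2, the monocyte receptor for Ccl2 and Ccl7, was at 1.95 and 25.9 FPKM.

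Genes that sense debris and transmit activation in myeloid cells were listed at a high rate. Of 37 genes of Fc receptor and ITAM signaling 30 were listed, all higher, with a median log2 ratio of 3.17 and 17 at 8-fold or more. Trem2, a lipid and debris receptor, was at 2.80 and 62.7 FPKM. Its adaptor Tyrobp was at 6.95 and 154 FPKM. The kinase Fgr was at 1.31 and 22.7 FPKM. The phosphatase Ptpn6 was at 2.76 and 47.2 FPKM. Of 40 pattern recognition genes 21 were listed, all higher, and 10 of them were in neither other table, against 24.8% of all entries. Their median log2 ratio of 2.42 was close to 2.46 for all higher entries. Of these genes 6 were at 8-fold or more, against 23.1% of all entries. Tlr13, which senses bacterial ribosomal RNA, was at 0.870 and 34.1 FPKM. Tlr8, an RNA sensor, was listed at 0 in Saline and 10.3 FPKM in AngII AAA. Of the 7 Toll-like receptor genes listed, all higher, 3 were in neither other table, against 24.8% of all entries. All 8 C-type lectin genes listed were higher, with a median log2 ratio of 2.77. Of 10 NADPH oxidase genes 6 were listed, all higher, with Ncf1, a cytosolic subunit of the phagocyte enzyme, at 4.01 and 75.8 FPKM. Cybb, its catalytic subunit, was at 1.93 and 20.8 FPKM. Of 36 genes of leukocyte adhesion and cytoskeleton 28 were listed, all higher, with a median log2 ratio of 2.87. Itgam, a subunit of the leukocyte integrin Mac-1, was at 3.73 and 74.9 FPKM. Interferon response genes were listed at a lower rate, 6 of 40, and the Schlafen gene Slfn2 had the largest ratio, at 4.2 and 64.6 FPKM.

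Of 22 lysosome genes 9 were listed, all higher, and Ctss, cathepsin S, was at 11.6 and 189.7 FPKM. Of 26 immediate early and stress genes 7 were listed, all higher. Ptgs2, the inducible cyclooxygenase, was at 1.16 and 24.7 FPKM. Socs3, a feedback inhibitor of cytokine signaling, was at 7.22 and 66.0 FPKM. Of 25 hypoxia and glycolysis genes 3 were listed, with Hif1a, the hypoxia-inducible factor, at 17.0 and 69.8 FPKM. Of 29 Wnt, BMP, and IGF modulators 4 were listed, 3 higher and 1 lower. Igfbp3, which binds insulin-like growth factors, was at 3.22 and 31.98 FPKM. Tgfb1, a transforming growth factor, was at 22.7 and 78.0 FPKM. Of the solute carriers 11 were listed, 8 higher and 3 lower, with Slc11a1, a metal transporter of phagocytes, at 2.09 and 47.5 FPKM. No keratin gene was listed. Of 24 lipid handling genes 6 were listed, all higher, and the scavenger receptor Msr1 was at 1.93 and 23.9 FPKM. Of the interleukins and their receptors 13 were listed, all higher, and Il6 was listed at 0 in Saline and 6.16 FPKM in AngII AAA. Il1f9, an interleukin of the IL-1 family, was at 1.33 and 12.4 FPKM.

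**Figure D2:**
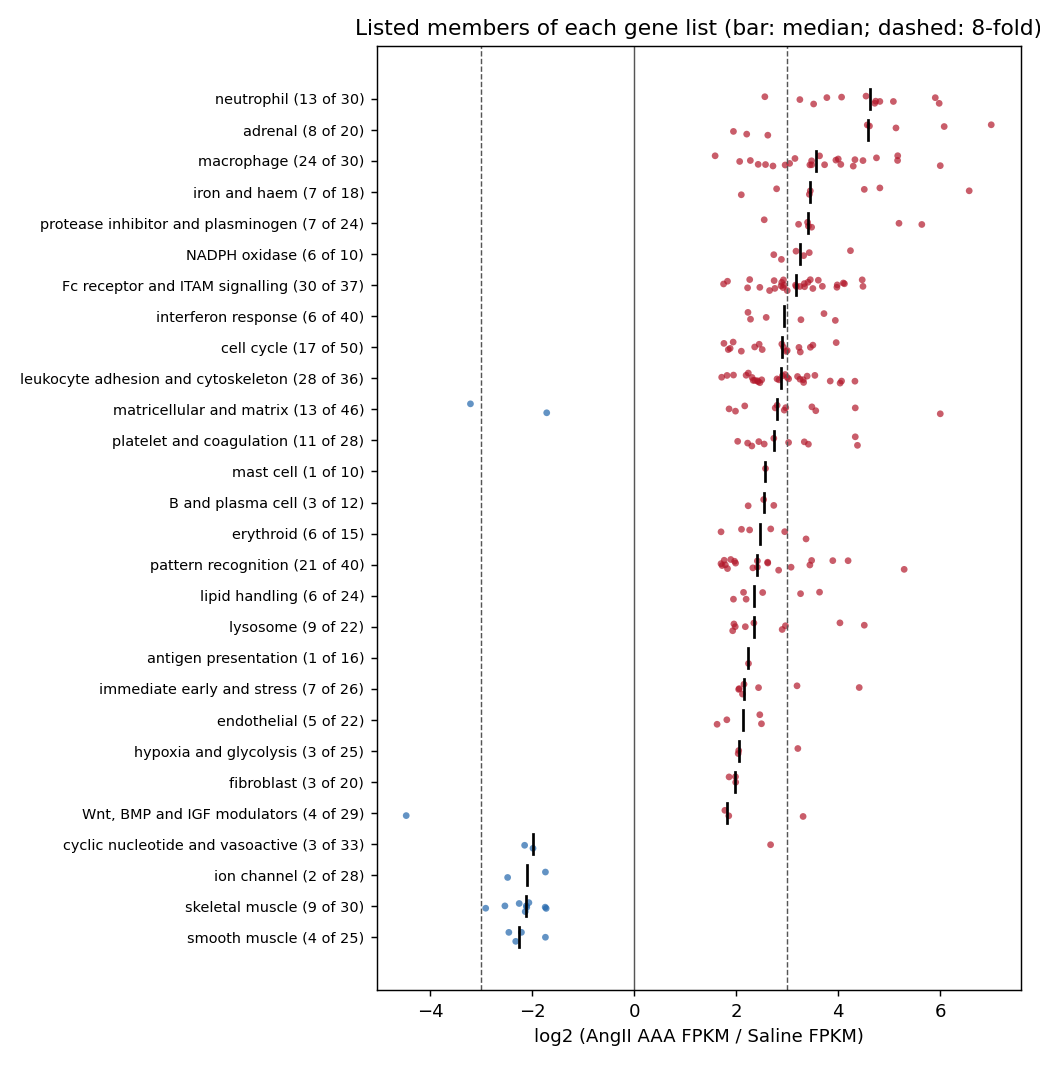
Log2 ratio of AngII AAA over Saline FPKM (x axis) for listed members of the 32 gene lists, where a list had a finite ratio. The y axis gives the number listed of the number in the list. Points are entries, bars are medians, and dashed lines mark 8-fold. Symbol families and lists added after values were seen are not drawn. Medians run from 4.63 for neutrophil markers to -2.26 for smooth muscle markers.

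The matrix was mixed in direction. Of 46 matricellular and matrix genes 13 were listed, 11 higher and 2 lower. Lox, which cross-links collagen and elastin, was at 16.4 and 193 FPKM. Cthrc1, a secreted protein of activated fibroblasts, was at 3.38 and 37.8 FPKM. Optc, the small leucine-rich protein opticin, was lower by over 8-fold, at 18.6 and 2.02 FPKM. Fmod, fibromodulin, which shapes collagen fibrils and was named after its value was seen, was at 32.7 and 9.98 FPKM. Of 5 collagen genes listed, 4 were higher and 1 was lower. Col3a1 (chromosome 1, mm9 45368382 to 45406551), a fibrillar collagen of vessel walls, was at 93.2 and 717 FPKM. Col12a1 was at 1.79 and 21.8 FPKM. Col5a2 was at 13.8 and 80.7 FPKM. Col8a1 was at 6.84 and 30.1 FPKM. These 4 are chains of fibrillar or other matrix collagens. Col4a6, a basement membrane chain, was at 10.3 and 2.58 FPKM. Of the genes with Mmp, Adam, or Adamts symbols 6 were listed, 5 proteases or ADAM proteins that were higher and 1 ADAMTS-like gene that was lower. Mmp9, a gelatinase, was at 3.99 and 76.1 FPKM. Adam8 was at 2.38 and 38.6 FPKM. Mmp14, a membrane collagenase, was at 18 and 95.1 FPKM. Adamtsl5, the lower gene, encodes a matrix protein without a protease domain and was at 20.0 and 6.46 FPKM. Protease inhibitors were listed in both directions. Of 24 protease inhibitor and plasminogen genes 7 were listed, all higher, 6 at 8-fold or more, whereas plasma inhibitors outside that list, Mug1, Serpina1d, Serpina1e, and Serpina3k, were lower, at log2 ratios of -2.82, -2.82, -2.06, and -1.76. Timp1, a secreted inhibitor of metalloproteinases, was at 6.52 and 325 FPKM, 49.8-fold higher. Wfdc17 was at 7.45 and 272 FPKM. Timp1 is listed on chromosome X (mm9 20425668 to 20498044), an interval longer than the gene, and overlapping genes may share its reads. Fibroblast markers were listed at 3 of 20, with Fbln2 at 30.4 and 120.5 FPKM. Mfap5 was at 15.2 and 55.1 FPKM. S100a4 was at 22.8 and 90.4 FPKM.

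Proliferation genes were higher in AngII AAA. Of 50 cell cycle genes 17 were listed, all higher, with a median log2 ratio of 2.89, or 2.26 with a pseudocount of 1 FPKM. Of them 5 were at 8-fold or more, against 23.1% of all entries, and 7 were in neither other table, against 24.8%. Mki67, a nuclear protein of cycling cells, was at 2.43 and 37.8 FPKM. Top2a, the topoisomerase of dividing cells, was at 1.34 and 14.7 FPKM. Kif23, a motor of cytokinesis, was at 0.638 and 7.23 FPKM. Mki67, Top2a, and Kif23 were each under 3 FPKM in Saline. Plk1, a mitotic kinase, was at 1.19 and 11.4 FPKM. Histone genes of the replication type, which are expressed in S phase and lack a poly(A) tail, gave 16 entries, all higher, of which 4 were listed at 0 in Saline. These copies are nearly identical in coding sequence, so the split of reads among them is uncertain. Hist1h2ab was at 4.32 and 87.1 FPKM, a log2 ratio of 4.33. Hist1h4a was at 9.60 and 136 FPKM. Hist1h2ak was at 12.2 and 162 FPKM. Hist1h3h was at 4.48 and 44.2 FPKM. Hist1h2bh, Hist1h2ah, and Hist1h2bn were at 0 in Saline and at 17.3, 15.1, and 13.5 FPKM in AngII AAA.

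Promoters of these histone genes are shown because all listed members were higher and most lie in 1 cluster on chromosome 13. RefSeq promoters of build GRCm38.p6 were found for 14 of the 16 entries by current or older symbol. The expression files use mm9, so these positions must not be set against theirs. The 120 bases before the annotated start site are printed 5′ to 3′ on the gene's strand, in lower case, with capitals marking each CCAAT or its reverse complement ATTGG.
Hist1h2bh (chr13:23543445-23543564, minus strand): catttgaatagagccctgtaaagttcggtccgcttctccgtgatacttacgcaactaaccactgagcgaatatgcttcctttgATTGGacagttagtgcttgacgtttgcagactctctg
Hist1h2ah (chr13:22035644-22035763, minus strand): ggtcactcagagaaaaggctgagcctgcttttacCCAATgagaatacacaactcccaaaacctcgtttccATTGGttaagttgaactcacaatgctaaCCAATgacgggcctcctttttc
Hist1h2bn (chr13:21753956-21754075, plus strand): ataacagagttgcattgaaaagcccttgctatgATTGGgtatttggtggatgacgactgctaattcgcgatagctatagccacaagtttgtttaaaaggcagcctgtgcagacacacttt
Hist1h2ab (chr13:23750968-23751087, plus strand): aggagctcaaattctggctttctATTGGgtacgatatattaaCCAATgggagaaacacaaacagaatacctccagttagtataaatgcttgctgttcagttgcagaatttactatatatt
Hist1h3h (chr13:21717508-21717627, plus strand): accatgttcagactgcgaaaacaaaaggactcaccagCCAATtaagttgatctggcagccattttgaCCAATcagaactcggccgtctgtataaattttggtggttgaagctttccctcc
Within the 250 bases before the start, CCAAT on either strand occurred in 12 of 14 listed histone promoters and in 33.8% of all 32851 promoters of the same length. The octamer ATGCAAAT on either strand occurred in 4 of 14 and in 1.601% of all promoters, and TATAAA on either strand in 5 of 14 and in 12.4%. These matches are letters in a window, and they were counted after the members were known. Promoters of histone genes that are not listed were not counted apart, so these shares cannot set listed histones against other histones. Hist1h2bn and Hist1h2ak lie on opposite strands, and their 120-base windows overlap.

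Genes of adrenal cortex were among the largest ratios of the whole table. Of 20 adrenal genes 8 were listed, all higher, with a median log2 ratio of 4.59 and 5 at 8-fold or more, and their summed level was 28.8 FPKM in Saline and 518 FPKM in AngII AAA. Hsd3b1, an enzyme of steroid synthesis, was at 1.05 and 134 FPKM, the largest finite ratio of the table at 6.997. Cyp21a1, the steroid 21-hydroxylase, was at 1.36 and 91.9 FPKM. Star, which delivers cholesterol to mitochondria, was at 1.96 and 68.7 FPKM. Cyp11a1, which cleaves its side chain, was at 2.95 and 72.2 FPKM. The adrenal medulla genes Th, Dbh, Pnmt, Chga, Chgb, and Slc18a1 were not listed. In the table that compares the 2 AngII libraries, Star was at 3.31 FPKM in AngII No AAA and 66.5 FPKM in AngII AAA. The part of neighboring adrenal tissue in these values was not tested.

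Endothelial markers were listed at 5 of 22, all higher. Glycam1, an endothelial mucin, was at 0 in Saline and 34.7 FPKM in AngII AAA. Lrg1, a secreted leucine-rich glycoprotein, was at 50.7 and 286 FPKM. Lyve1, of lymphatic endothelium and some macrophages, was at 8.71 and 48.0 FPKM. Vcam1, the vascular adhesion molecule, was at 9.90 and 34.9 FPKM. Emcn was at 14.1 and 43.6 FPKM.

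Genes lower in AngII AAA were fewer and led by muscle, vessel wall, and plasma protein genes. Sost, which encodes the Wnt inhibitor sclerostin and is also made by aortic smooth muscle, was at 143 and 6.48 FPKM, 22.1-fold lower, the lowest finite ratio of the table. Its interval is chromosome 11, mm9 101823771 to 101828329. The other 3 entries lower by 8-fold or more were Optc, given above, Tnnt2, and Magix, and with a pseudocount of 1 FPKM all 3 were under 8-fold, at log2 ratios of -2.70, -1.91, and -1.70. Tnnt2, the troponin T of heart muscle, was at 4.73 and 0.525 FPKM. Magix was at 3.62 and 0.421 FPKM. Of 25 smooth muscle markers 4 were listed, all lower, with a median log2 ratio of -2.26. Itga8, an integrin of contractile smooth muscle, was at 149 and 32.2 FPKM. Lmod1, an actin nucleator, was at 115 and 23.1 FPKM. Synpo2, an actin-binding protein, was at 85.6 and 15.6 FPKM. Kcnmb1, the beta subunit of the BK channel, was at 31.3 and 9.39 FPKM. Itga8 and Lmod1 were over 100 FPKM in Saline. Mir143hg, the host transcript of a microRNA pair of smooth muscle, was at 136 and 36.7 FPKM. Cytl1 was at 156 and 32.3 FPKM. Of 33 cyclic nucleotide and vasoactive genes 3 were listed, 2 lower and 1 higher. Adcy5, an adenylyl cyclase, was at 44.3 and 11.2 FPKM. Adra1d, an alpha-1 adrenergic receptor, was at 10.2 and 2.31 FPKM. The higher gene, Ednrb, an endothelin receptor, was at 9.09 and 58.0 FPKM. Of 28 ion channel genes 2 were listed, both lower. All 4 potassium channel genes listed were lower, and beside Kcnmb1, Kcnab1, Kcnc1, and Kcnh2 were at log2 ratios of -2.48, -1.72, and -1.69.

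Skeletal muscle genes were also lower. Of 30 markers 9 were listed, all lower, with a median log2 ratio of -2.11, and their summed level was 417 FPKM in Saline and 93.2 FPKM in AngII AAA. Casq1, the calcium store protein of fast fibers, was at 11.7 and 1.55 FPKM. Myh4, a fast myosin, was at 41.8 and 7.23 FPKM. Myl1, a fast myosin light chain, was at 107 and 22.6 FPKM. In a list of Z-disc and M-band genes added after values were seen, 7 of 18 were listed, all lower, and Tcap, the titin cap, was at 93.1 and 14.1 FPKM. Liver plasma protein genes, a list also added after values were seen, gave 8 of 25, all lower, with a median log2 ratio of -2.00. Alb, albumin, was at 128 and 34.6 FPKM. Gc, the vitamin D-binding protein, was at 40.7 and 8.36 FPKM, whereas Serpina1e and Serpina1d, close copies of alpha-1 antitrypsin, had log2 ratios of -2.06 and -2.82, with the split of reads between copies uncertain. Of 15 kidney tubule genes in another added list, Slc34a1, a phosphate transporter, was at 7.37 and 1.42 FPKM. Slc27a2, a fatty acid transporter, was at 24.5 and 6.33 FPKM. The part of tissue around the aorta in these values was not tested.

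**Figure D3:**
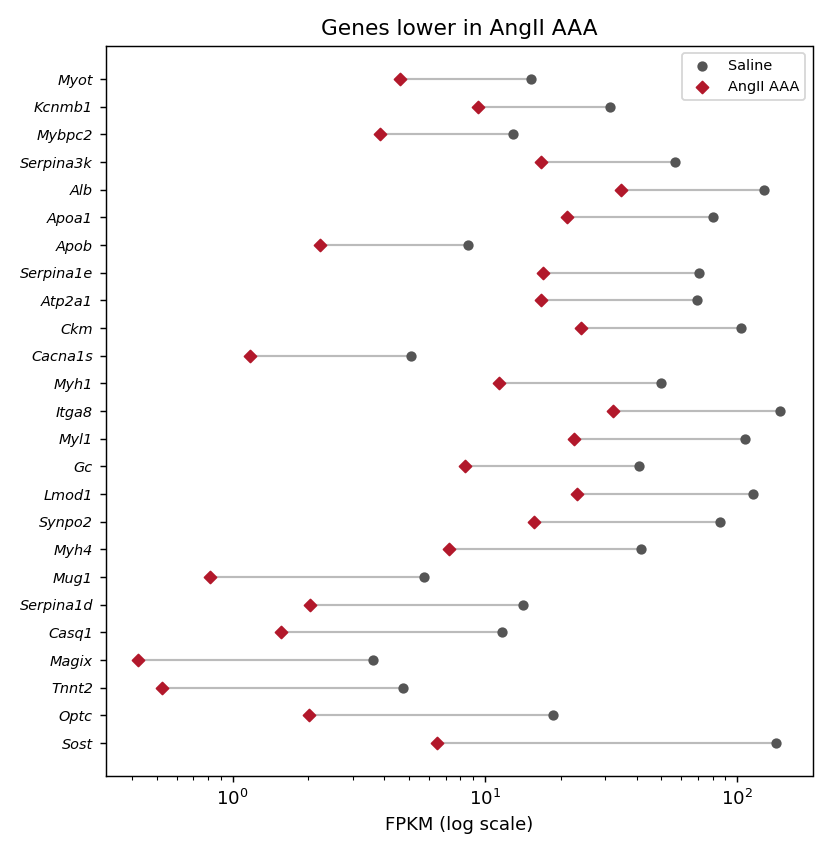
FPKM (x axis, log scale) in Saline (circles) and AngII AAA (diamonds) for listed smooth muscle, skeletal muscle, and liver plasma protein genes and the 4 genes at 8-fold or more lower. Each diamond lies left of its circle, and the gap is widest for Sost, at 143 and 6.48 FPKM.

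Of the 715 entries, 177 (24.8%) were in neither other table, 137 of them higher and 40 lower in AngII AAA. Absence means that the entry did not pass the authors' threshold in those comparisons or was not tested there, so its AngII No AAA level is unknown. These entries had smaller ratios than the rest: the higher ones with a fold had a median log2 ratio of 1.98 against 2.64, and a median level in the higher library of 14.9 against 33.6 FPKM. The group is defined by that threshold in comparisons that share these libraries, so its smaller values are not a separate trait. Timp1 was the largest of them, followed by Retnlg, a resistin-like gene of neutrophils, at 2.87 and 67.0 FPKM. Slfn10-ps was at 0.250 and 3.91 FPKM. Ccl3, a macrophage chemokine, was at 2.21 and 28.7 FPKM. Clec4a2 was at 0.909 and 9.52 FPKM. Naip2, an inflammasome sensor, was at 0.548 and 4.62 FPKM. Translation and secretion genes were among the highest levels here. Of the cytosolic ribosomal protein genes 8 were listed, all higher, 6 of them in neither other table, with a median log2 ratio of 1.77. Rplp1 was at 133 and 421 FPKM. All 5 listed genes of endoplasmic reticulum protein processing, of 23, were in neither other table, with Ssr2, a translocon-associated protein, at 24.0 and 81.0 FPKM. Pdia6, a disulfide isomerase, was at 23.4 and 78.7 FPKM. These last lists were added after values were seen. Mcl1, which blocks apoptosis, was at 24.4 and 87.6 FPKM. Clic1 was at 40.3 and 132 FPKM. Among the lower entries, the ratios farthest from 0 beside Magix were those of Mug1, a plasma protease inhibitor, at 5.72 and 0.813 FPKM, and Gm1600, a gene model, at 4.28 and 0.649 FPKM. Sh3d21 was at 7.92 and 1.45 FPKM. Fbln7, a fibulin, was at 10.5 and 2.20 FPKM. Gjb1, a gap junction protein, was at 7.24 and 1.63 FPKM.

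Some further higher entries that neither other table lists are given as single genes, chosen after their values were seen. Ezh2, the methyltransferase of Polycomb repression, was at 2.47 and 9.66 FPKM. Uhrf1, which maintains DNA methylation, was at 1.28 and 8.38 FPKM. H2afx, a histone variant marked at DNA breaks, was at 6.75 and 34.5 FPKM. Smc2 and Smc4, both of them condensin subunits, were at 1.68 and 6.21 FPKM and at 4.07 and 14.1 FPKM. No list was counted for these genes. Runx2, a transcription factor of bone formation, was at 2.85 and 10.5 FPKM, and Pgf, a placental growth factor of the VEGF family, at 2.11 and 10.2 FPKM. Tnfrsf13b, a receptor of B cells, was listed at 0 in Saline and 7.76 FPKM in AngII AAA.

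**Figure D4:**
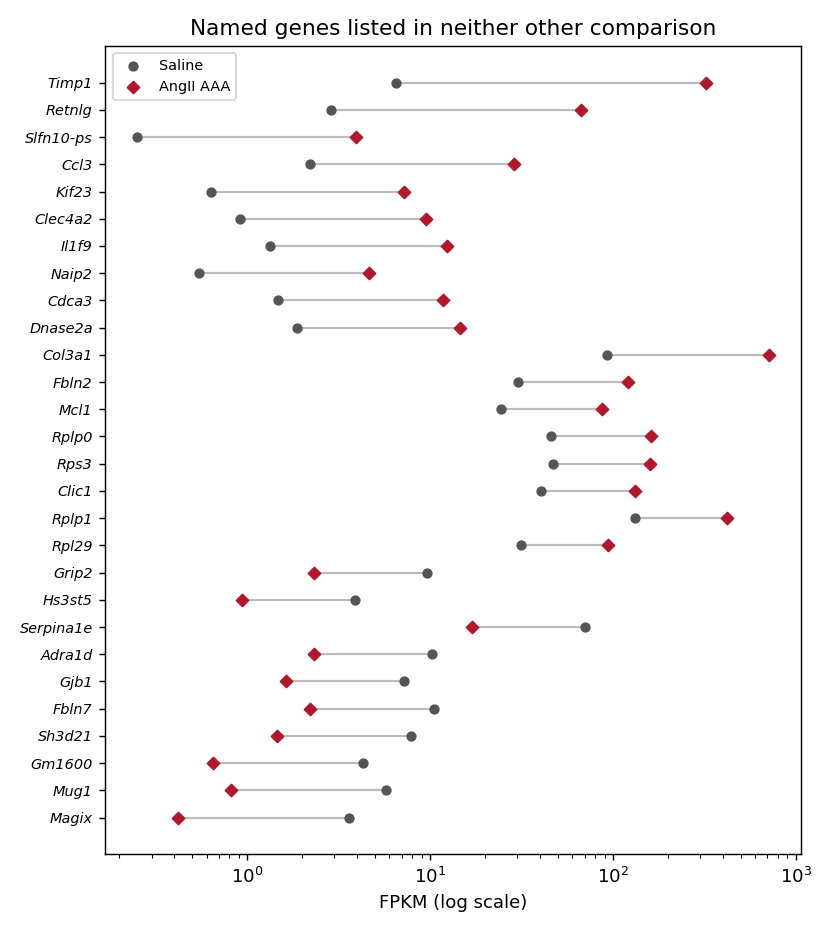
FPKM (x axis, log scale) in Saline (circles) and AngII AAA (diamonds) for the named genes that neither other table lists. Timp1 shows the widest gap, at 6.52 and 325 FPKM, and the ribosomal protein genes sit at higher levels with narrower gaps.

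There were 38 entries listed at 0 in a library, 20 in Saline and 18 in AngII AAA. Of them, 26 were in neither other table. Levels in the other library were low, from 3.62 to 34.7 FPKM with a median of 5.48. Of the entries at 0 in Saline, 8 reached 10 FPKM in AngII AAA, against 1 entry the other way. The interval given for entries at 0 had a median of 3215 bases, against 17546 bases for entries with a fold. Glycam1 and Stfa2l1, a stefin of neutrophils, led the entries at 0 in Saline, with Stfa2l1 at 21.1 FPKM. Hcst, a signaling adaptor of killer and myeloid receptors, was at 10.5 FPKM and Ctla2b, a protease inhibitor-like gene, at 10.4 FPKM. Of the 18 entries at 0 in AngII AAA, 8 were gene models without a name, of 10 such models that were lower. Of the 29 entries whose symbol holds a gene model name, 3 of which also cover named genes, 15 were at 0 in a library. Mir466k was at 10.7 FPKM in Saline, the highest of this group, and Apom, an apolipoprotein of liver and kidney, at 4.28 FPKM. FPKM of a gene entry does not measure mature microRNA.

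**Figure D5:**
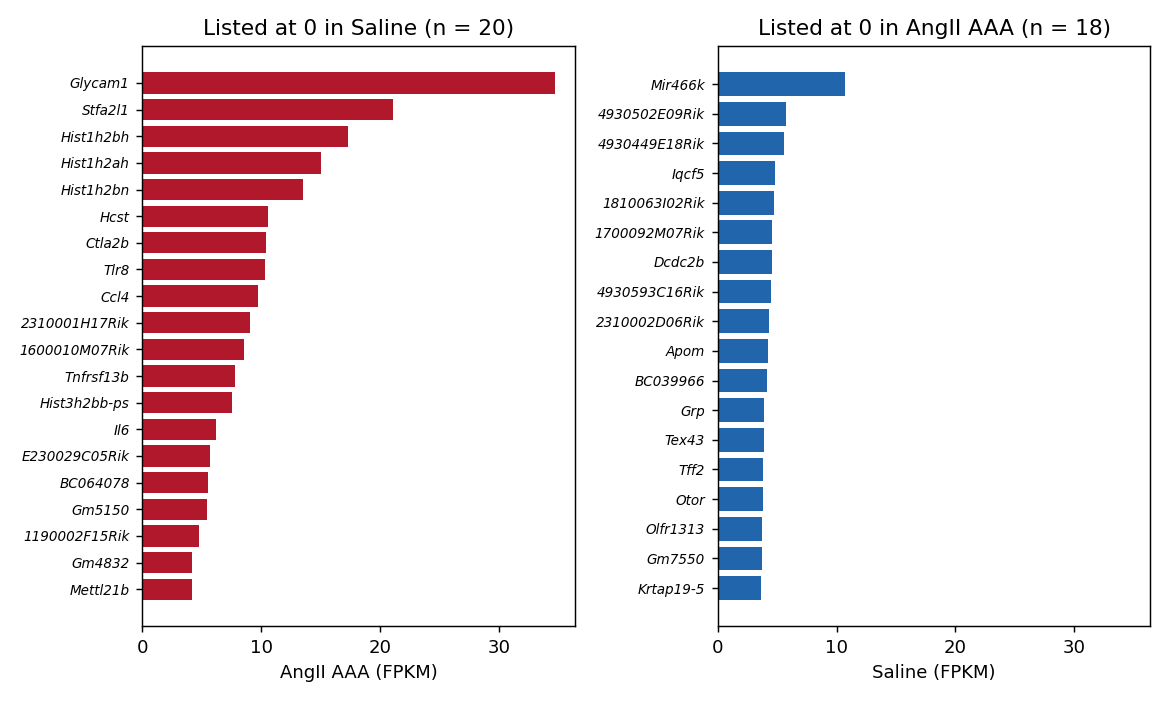
Entries listed at 0 in Saline (left, bars show AngII AAA FPKM, n = 20) and at 0 in AngII AAA (right, bars show Saline FPKM, n = 18), on a shared linear x axis that starts at 0. Glycam1 reaches 34.7 FPKM on the left, and the highest bar on the right is Mir466k at 10.7 FPKM.

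Of 3 entries with microRNA symbols, 1 was higher and 2 were lower, among them the host transcript Mir143hg, given above. The entries named for a microRNA itself, Mir223 and Mir466k, are shown with their mature sequences from RefSeq (GRCm38.p6), since the first was higher and the second was listed at 0 in AngII AAA. Capitals mark the seed, bases 2 to 8. The entry for F630028O10Rik and Mir223 together was at 2.99 and 20.4 FPKM, and the reads could belong to either.
mmu-miR-223-3p: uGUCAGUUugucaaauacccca
mmu-miR-223-5p: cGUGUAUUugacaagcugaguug
mmu-miR-466k: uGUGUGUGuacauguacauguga
The seeds of these 3 sequences differ from each other.

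Of the 715 entries, 303 were also in the table of the 2 AngII cohorts alone, 152 in that of AngII No AAA vs. Saline alone, and 83 in both. These comparisons share libraries, so the values are set side by side with no test. Each table was scaled separately: FPKM of the AngII AAA library were 0.968 times as large in its other table, and FPKM of the Saline library 1.09 times as large. Hmox1 was at 60.7 FPKM in AngII No AAA and 1016 FPKM in AngII AAA in their shared table, and at 66.4 and 12.1 FPKM in the AngII No AAA and Saline libraries in theirs. Spp1 was at 33.3 FPKM in AngII No AAA and 530.4 FPKM in AngII AAA, and at 36.4 FPKM in AngII No AAA against 9.37 FPKM in Saline. For both genes the AngII No AAA level lay between the other libraries. Hbb-b2, listed against Saline alone, was at 850.2 FPKM in AngII No AAA and 129 FPKM in Saline. In the same table Tcap was at 21.0 FPKM in AngII No AAA and 102 FPKM in Saline. Sost was at 99.0 FPKM in AngII No AAA and 6.27 FPKM in AngII AAA.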

How the data were processed

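RNA-seq of 3 suprarenal aorta libraries was used, 1 per cohort (AngII AAA, AngII No AAA, Saline). The authors deposited FPKM values from Cuffdiff, with a separate run for each pair of libraries, after FastQC, HISAT2, and Cufflinks; the submitters' processing notes name build mm9 and no versions. The tables also hold the authors' log2 fold changes, test statistics, p-values, q-values, and significance calls. These were not used, except to check that no row reached the unadjusted p-value threshold of 0.05. Depth per library is not in the files.

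From the FPKM, log2(AngII AAA / Saline) was computed with no pseudocount. With 1 library per cohort no test was made, and a fixed size of 8-fold (log2 of 3) described large differences. Entries listed at 0 in a library were counted apart. Entries were grouped with 32 gene lists and 13 symbol families, plus 6 lists and families added after values were seen. All members and lists were chosen with earlier results of these data known. Named genes were single-gene entries: the 10 ratios farthest from 0 in each direction at 1 FPKM or more; the 10 highest entries at 0 per direction; the 10 such ratios per direction and the 10 highest levels in neither other table; the 4 largest ratios per list, or every member of lists with 6 or fewer; and the 10 highest levels per library. Exceptions are marked. Some genes that this rule names are not reported here. Promoter and microRNA sequences came from RefSeq (GRCm38.p6). Alternatives were pseudocounts of 1 and 0.1 FPKM, a filter at 1 FPKM, single-gene entries, folds of 4 and 16, and rescaling to the other tables. The calculation was tested on simulated data. Python 3.11.15, pandas 2.3.3, and numpy 2.4.6 were used.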

Additional observations from a re-analysis of the deposited data

Results flagged for a closer look

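The platelet genes Nrgn and Ppbp were higher in AngII AAA than in Saline and lower in AngII No AAA than in Saline, and no other entry listed in both comparisons had opposite directions. The log2 ratio of AngII AAA over Saline was 2.03 for Nrgn and 3.34 for Ppbp. The log2 ratio of AngII No AAA over Saline was -1.72 and -1.44. Nrgn was at 14.4 FPKM in AngII No AAA and 47.3 FPKM in Saline, and Ppbp at 5.87 and 15.9 FPKM. The difference between the 2 comparisons was not tested, since each cohort had 1 library and both share the Saline library.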

How the results depend on the processing

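No paired analysis was possible because each cohort had 1 library, and no replicate could be left out. The counts of higher, lower, and zero entries and of entries in neither other table were rerun only with the 1 FPKM filter and with single-gene entries. The filter removed no entry, and only 6 entries cover several genes, so these counts had little room to move. The count at 8-fold or more higher was 165. It was 120 with a pseudocount of 1 FPKM, 177 with one of 0.1 FPKM, and 144 after rescaling to the other tables, and it was 431 at a fold of 4 and 51 at a fold of 16. The count at 8-fold or more lower was 4. It was 2 with a pseudocount of 1 FPKM, where only Sost of the 4 remained, and 20 with one of 0.1 FPKM. It was 6 after rescaling, 48 at a fold of 4, and 1 at a fold of 16. Both pseudocounts give a fold to entries listed at 0, so the higher and lower counts made with them can include such entries. The median log2 ratio of all entries with a fold was 2.264, and it was 2.264 for single-gene entries, 2.01 with a pseudocount of 1, 2.24 with one of 0.1, and 2.09 after rescaling, which shifts every log2 ratio by -0.18. The median of the small nucleolar and microRNA entries turned from 0.44 to -1.86 and -1.89 with pseudocounts of 1 and 0.1, since Mir466k, listed at 0, then has a ratio. The other list medians kept their direction, and for lists with every listed member in 1 direction they could not change it. The named ratios could not change theirs, since a pseudocount cannot turn a sign and the rescaling shift is smaller than every listed ratio. A pseudocount of 1 moved a named log2 ratio by up to 2.87 (Mefv), with a median of 0.26. Low genes are the most exposed, and depth per library is unknown.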

Other observations

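Of the 715 entries, 356 were in no gene list or symbol family, 298 of them higher and 58 lower, with a median log2 ratio of 2.09 over those with a fold. Among them, Mefv, which encodes the inflammasome protein pyrin, was at 0.141 FPKM in Saline and 9.60 FPKM in AngII AAA, a log2 ratio of 6.09, or 3.22 with a pseudocount of 1 FPKM. Asb2, a ubiquitin ligase subunit of muscle, was at 21.4 and 3.14 FPKM. Chosen after the values were seen, 3 single genes in neither other table are given with no list counted. Mlkl, which executes necroptosis, was at 2.05 and 9.75 FPKM. Casp8, an initiator caspase, was at 8.28 and 30.9 FPKM. Apaf1, the core of the apoptosome, was at 1.93 and 6.56 FPKM. In the same way, Heyl, a Notch target of smooth muscle, was at 35.8 and 9.57 FPKM. Ramp1, which forms the receptor for a vasodilator peptide, was at 37.7 and 11.2 FPKM.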
